A study of Mus musculus with 6 samples.

Results

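The 10 genes Fzd1, Fzd4, Fzd6, Fzd7, Fzd8, Lrp5, Lrp6, Gpr124, Reck and Tspan12 encode receptors and receptor partners for Wnt7 and Norrin on brain endothelial cells. They were taken by gene symbol from a table of 22958 gene entries, where each of the 10 had 1 entry, and all 10 had enough reads to be tested. RNA was sequenced from brain endothelial cells of mouse embryos (C57BL/6 x 129/Sv), sorted on CD31 (PECAM1) at E11.5 (embryonic day) after tamoxifen was given to the mother at E9.5. The 3 Axin1 libraries overexpressed Axin1 and carried the genotype Cdhrs5CreERT2:R26Axin1IL+/-. The 3 control libraries had wildtype Axin1 expression and carried Cdhrs5CreERT2:R26Axin1IL-/-. The tamoxifen-inducible Cre and the tamoxifen were therefore common to both groups. The labels call the libraries biological replicates and do not say whether embryos were pooled or shared a litter, so p-values measure the spread between these libraries. The series asked how brain endothelial expression responds to Axin1, a scaffold of the complex that destroys beta-catenin.

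Wnt7a and Wnt7b are made by neural progenitors and signal to the endothelium through Frizzled receptors and the co-receptors LRP5 and LRP6. The adhesion receptor GPR124 and the membrane-anchored glycoprotein RECK make this signal specific for Wnt7. Norrin, the product of Ndp, is not a Wnt but binds FZD4, and the tetraspanin TSPAN12 strengthens Norrin signalling through FZD4 and LRP5, best known from the retina. Both ligands stabilise beta-catenin, and AXIN1 acts downstream of the receptors.

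None of the 10 genes had an adjusted p under 0.05 by edgeR's quasi-likelihood test, adjusted over all 12661 tested genes. The same test called 0.845% of all tested genes. The lowest adjusted p of the 10 was 0.191, for Fzd6. At an unadjusted p under 0.05 there were 3 of the 10, Fzd6, Fzd4 and Lrp5, against 17.2% of all tested genes. The libraries of the groups did not overlap for 2 of the 10, Fzd4 and Fzd6, against 23.8% of all tested genes. DESeq2 called 0 of the 10, against 6.58% of the genes it gave an adjusted p, and it gave none for Fzd7 and Fzd8. Of the 10 fold changes, 5 were positive and 5 negative, with a median log2 value of -0.02, and the median over all tested genes was 0.02.

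Axin1 itself stood at 21.4, 17.0 and 17.7 RPKM (reads scaled for gene length and library size) in Axin1 libraries 1, 2 and 3, against 6.53, 4.67 and 5.58 RPKM in control libraries 1, 2 and 3. Its log2 fold change was 1.72 (edgeR adjusted p 0.0103). Without control 2 the log2 value was 1.60 (edgeR adjusted p 0.0915) and without Axin1 library 2 it was 1.79 (edgeR adjusted p 0.0721). Of 14 endothelial markers all were tested and edgeR called 0, with 3 at an unadjusted p under 0.05, against 17.2% of all tested genes. DESeq2 called 1, Cdh5, against 6.58% of the genes it gave an adjusted p. The summed level of the 14 markers was 10805 to 12315 CPM in the Axin1 libraries and 10974 to 11400 CPM in the controls. CPM are reads scaled for normalised library size and not for gene length. The Axin1 libraries held 11633853 to 14234409 reads in genes, and the controls 10772492 to 13035808. The 10 genes together took 4944 to 6432 reads of an Axin1 library and 4312 to 6546 of a control.

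The promoters of Fzd4 and Tspan12 are shown because their products meet in the Norrin receptor, because the Fzd4 groups did not overlap, and because Tspan12 had the highest level of the 10 with nearly equal groups. Each run is the 250 bases before the annotated start, 5′ to 3′ on the gene's strand, from RefSeq (GRCm38.p6). Capitals mark the TCF/LEF core CTTTG and the GC box GGGCGG on either strand (CAAAG and CCGCCC on the other), and copies of the GC box may overlap. Fzd4 lies at chr7:89404116-89404365 on the plus strand, and Tspan12 at chr6:21852534-21852783 on the minus strand.
Fzd4: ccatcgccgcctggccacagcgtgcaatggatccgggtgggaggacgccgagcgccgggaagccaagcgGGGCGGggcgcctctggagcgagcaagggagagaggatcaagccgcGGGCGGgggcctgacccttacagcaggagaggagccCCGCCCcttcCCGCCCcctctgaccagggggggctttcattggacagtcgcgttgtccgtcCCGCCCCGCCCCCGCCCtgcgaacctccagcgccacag
Tspan12: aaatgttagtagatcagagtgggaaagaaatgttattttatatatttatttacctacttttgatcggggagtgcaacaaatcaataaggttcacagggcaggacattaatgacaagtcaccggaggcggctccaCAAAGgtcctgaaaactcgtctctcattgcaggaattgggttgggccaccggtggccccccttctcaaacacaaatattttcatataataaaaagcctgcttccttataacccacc

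In these windows Fzd4 held 7 GC boxes and 0 TCF/LEF cores at a GC content of 72.8%, and Tspan12 held 0 GC boxes and 1 TCF/LEF core at 42.0%. The TCF/LEF core occurred in 48.6% of all 32851 promoter windows of this length and the GC box in 32.7%. Windows were also matched for Fzd1, Fzd7 and Reck, with 2, 1 and 1 TCF/LEF cores. A match gives letters only, and binding was not measured.

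Levels per length differed widely among the 10 genes and in a like order in both groups. Tspan12 was highest in every library, at 86.5 ± 3.80 RPKM in the Axin1 libraries and 82.5 ± 8.59 RPKM in the controls (SD, n = 3 each). Fzd6 came next, at 9.40 ± 2.13 RPKM with Axin1 and 15.2 ± 4.42 RPKM in the controls. Fzd7 and Fzd8 were lowest in both groups, each under 0.7 RPKM in every library. In the Axin1 group the order was Tspan12, Fzd6, Lrp6, Fzd4, Gpr124, Lrp5, Reck, Fzd1, Fzd7 and Fzd8. Among neighbours in this order, ranges overlapped between Fzd6 and Lrp6, Lrp6 and Fzd4, Fzd4 and Gpr124, and Fzd7 and Fzd8. In the control group the order was Tspan12, Fzd6, Lrp6, Gpr124, Fzd4, Reck, Lrp5, Fzd1, Fzd7 and Fzd8. Among neighbours there, the ranges overlapped between Lrp6 and Gpr124, Reck and Lrp5, Lrp5 and Fzd1, and Fzd7 and Fzd8. Genes further apart in either order were not compared in this way. Within libraries, Fzd4 lay above Gpr124 in 3 of 3 Axin1 libraries and Gpr124 above Fzd4 in 3 of 3 controls.

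**Figure D1:**
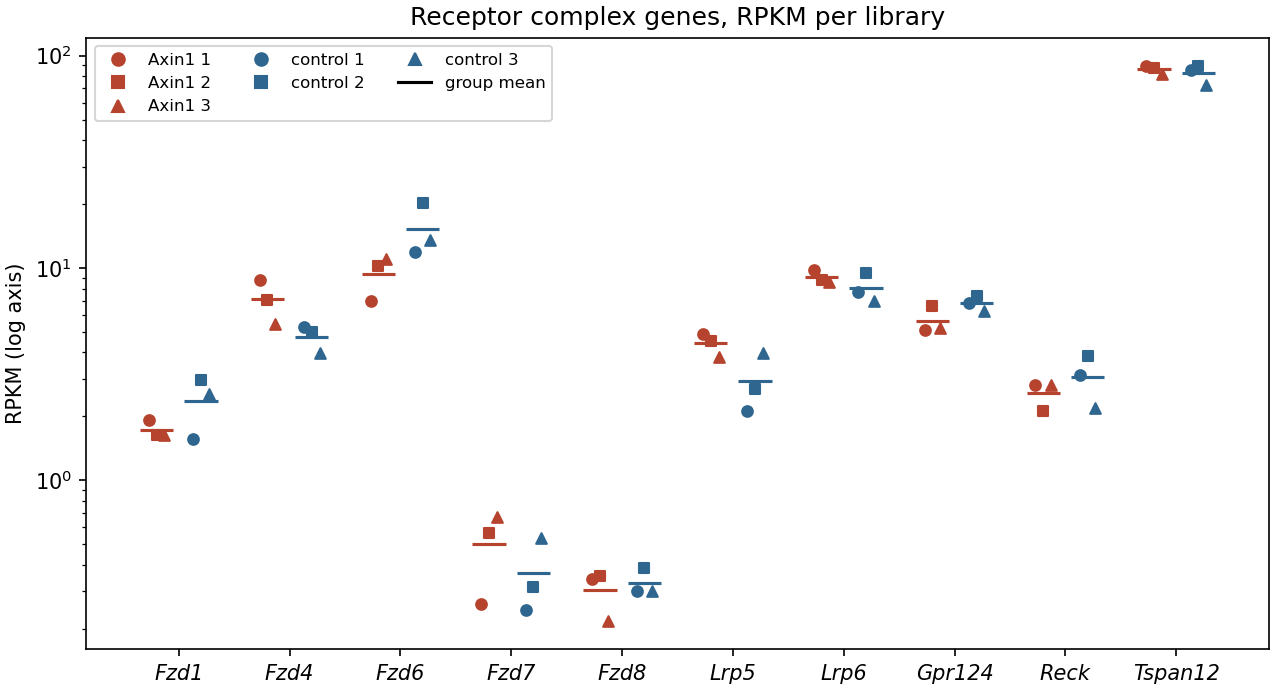
RPKM of the 10 genes on a log axis, with the 3 Axin1 libraries left of the 3 controls for each gene, and bars at the group means. Tspan12 stands between 72.8 and 89.8 RPKM in all 6 libraries, while Fzd7 and Fzd8 stay under 0.7 RPKM.

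Among the Frizzled genes, Fzd6 and Fzd4 stood on opposite sides. Fzd6, a Frizzled best known for planar cell polarity together with Fzd3, had 6.97, 10.2 and 11.0 RPKM in Axin1 libraries 1, 2 and 3, against 11.9, 20.2 and 13.5 RPKM in controls 1, 2 and 3. Every Axin1 library lay below every control, with control 2 highest of all and Axin1 library 3 within 1 RPKM of control 1. The log2 fold change of Fzd6 was -0.71 (SE 0.24, 95% confidence interval -1.26 to -0.16), with an unadjusted p of 0.0176 and an edgeR adjusted p of 0.191. The DESeq2 adjusted p was 0.0611. Without control 2 the log2 fold change was -0.46 (edgeR adjusted p 0.450). In the GRCm38 annotation an exon of the noncoding gene Gm26704 overlaps Fzd6 on the opposite strand, and without a stated strand setting their reads cannot be told apart.

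Fzd4, the Norrin receptor, which also takes part in Wnt7 signalling, had 8.77, 7.09 and 5.48 RPKM in Axin1 libraries 1, 2 and 3, against 5.28, 4.98 and 3.98 RPKM in controls 1, 2 and 3. Every Axin1 library lay above every control. Axin1 library 3 and control 1 were the nearest to each other. The log2 fold change was 0.56 (SE 0.22, 95% confidence interval 0.07 to 1.06), with an unadjusted p of 0.0304 and an edgeR adjusted p of 0.238. Leaving out 1 library at a time kept it between 0.38, without Axin1 library 1, and 0.71, without Axin1 library 3.

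The ratio of Fzd4 to Fzd6 RPKM was 1.26, 0.693 and 0.498 in Axin1 libraries 1, 2 and 3, against 0.444, 0.246 and 0.294 in controls 1, 2 and 3. Fzd4 exceeded Fzd6 in Axin1 library 1 alone. The ratio did not overlap between groups, which was fixed by the separation of Fzd4 and Fzd6 in opposite directions. This ratio and those below were given no test. With 3 libraries a group, a two-sided exact permutation test of a single value cannot give a p below 0.10.

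**Figure D2:**
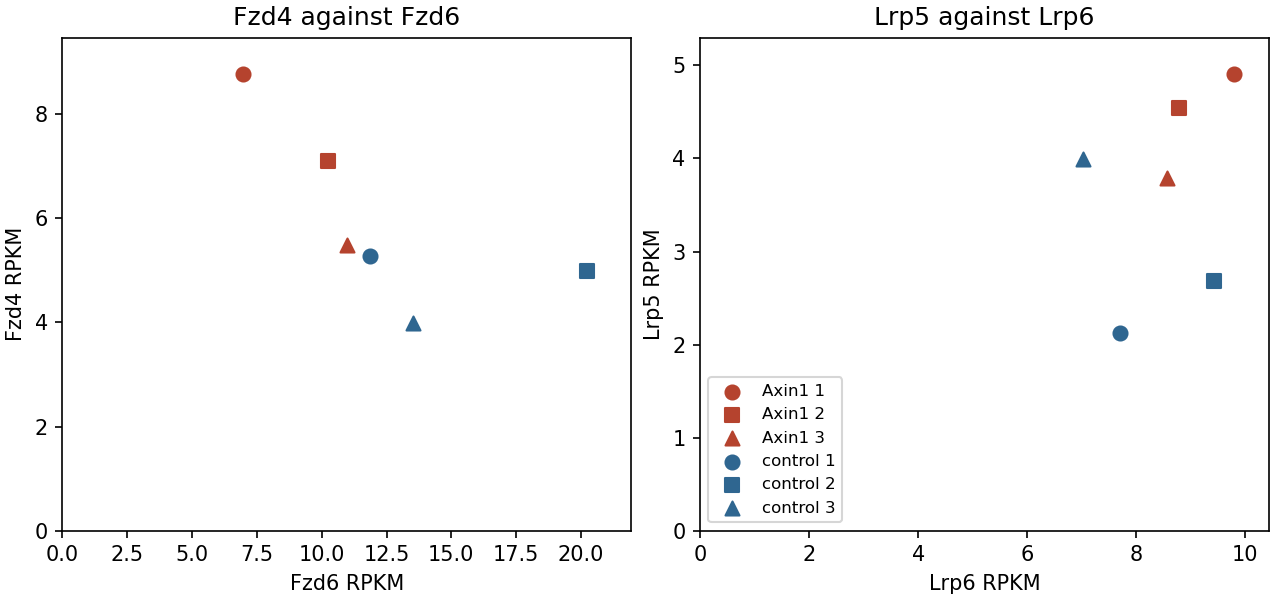
RPKM of Fzd4 against Fzd6 (left) and of Lrp5 against Lrp6 (right), 1 point per library. The Axin1 libraries lie above and to the left of the controls on the left, and control 3 lies among the Axin1 libraries for Lrp5 at 3.99 RPKM.

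The other 3 Frizzled members were expressed at lower levels. Fzd1, a Wnt receptor close in sequence to Fzd7, had 1.93, 1.64 and 1.64 RPKM in the Axin1 libraries, against 1.56, 2.97 and 2.54 RPKM in the controls. Control 1 lay below every Axin1 library and the other 2 controls above them, so the groups overlapped (log2 -0.45, 95% confidence interval -1.08 to 0.17, edgeR adjusted p 0.443). Fzd7 had 16, 39 and 38 reads in the Axin1 libraries, against 14, 20 and 28 reads in the controls (log2 0.44, 95% confidence interval -0.72 to 1.61, edgeR adjusted p 0.706). Fzd8 had 15, 17 and 9 reads in the Axin1 libraries, against 12, 17 and 11 reads in the controls (log2 -0.09, 95% confidence interval -1.20 to 1.01, edgeR adjusted p 0.948). With these few reads the 95% confidence interval of Fzd8 ran from 0.435-fold to 2.02-fold.

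Markers of mural and mesenchymal cells varied between libraries as well. Summed pericyte and mesenchyme markers stood at 130, 196 and 155 CPM in Axin1 libraries 1, 2 and 3, against 77.4, 119 and 156 CPM in controls 1, 2 and 3. Of the 14 tested, 0 were called by edgeR or DESeq2 (0 at an unadjusted p under 0.05). DESeq2 gave Cspg4, Dcn and Prrx1 no adjusted p. Axin1 library 1 and control 1 were the lowest of their groups in both Fzd7 and this sum. The markers went opposite ways, however. Abcc9, Kcnj8 and Tagln were higher in Axin1 library 1 than in Axin1 libraries 2 and 3, and every other marker was lower. In Axin1 libraries 1, 2 and 3, Abcc9 stood at 64.2, 39.3 and 23.4 CPM, and Col1a2 at 7.59, 36.8 and 26.4 CPM. Every marker of that list had reads in at least 1 library, and the part of these cells in the Fzd7 values was not tested. In a bulk sample, fewer cells of a type and less RNA per cell cannot be told apart.

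Summed over all 10 Frizzled genes of the mouse (Fzd1 to Fzd10), the level was 26.3, 29.0 and 25.4 RPKM in the Axin1 libraries, against 27.8, 37.7 and 31.7 RPKM in the controls, and the groups overlapped. Fzd4 made up 33.4%, 24.4% and 21.6% of this sum in Axin1 libraries 1, 2 and 3, against 19.0%, 13.2% and 12.6% in controls 1, 2 and 3. Its groups did not overlap, and neither did those of Fzd4 RPKM itself, so this is not a separate result. Fzd6 made up 26.5%, 35.3% and 43.3% in the Axin1 libraries, against 42.8%, 53.7% and 42.7% in the controls, and Axin1 library 3 lay among the controls. Fzd10, which belongs to the same Frizzled subfamily as Fzd4 and is not among the 10 receptor complex genes, was the other large share and exceeded that of Fzd4 in all 3 controls and in Axin1 library 2, with 15.6% to 25.1% in the Axin1 libraries and 19.7% to 25.8% in the controls. Fzd1 held 5.65% to 7.34% with Axin1 and 5.62% to 8.02% in the controls. Fzd7 and Fzd8 each stayed under 3%. Shares of 1 sum depend on each other, so a lower share of 1 gene raises the rest.

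**Figure D3:**
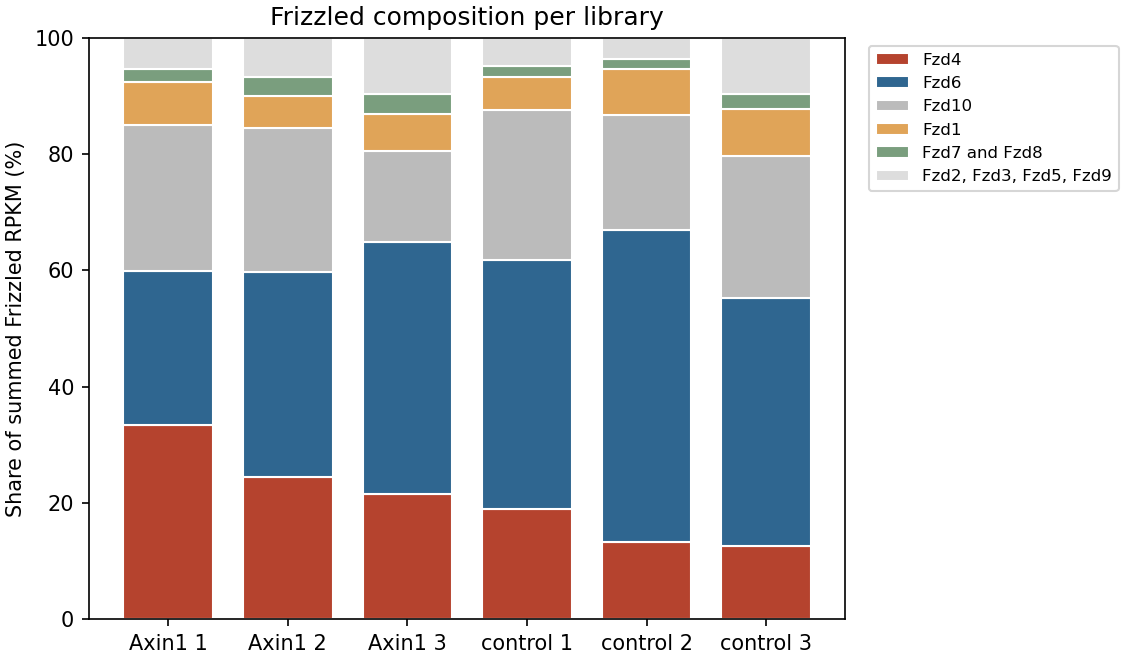
Share of each Frizzled gene in the summed Frizzled RPKM of a library, as stacked bars from 0 to 100%, with the 3 Axin1 libraries left of the 3 controls. Fzd4, the lowest segment, takes 21.6% to 33.4% in the Axin1 libraries and 12.6% to 19.0% in the controls.

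Neither co-receptor gene passed the test, with Lrp5 at an unadjusted p under 0.05 and Lrp6 not. LRP5 and LRP6 are the paired single-pass receptors whose phosphorylated tails bind AXIN1. Lrp5 had 4.91, 4.55 and 3.79 RPKM in Axin1 libraries 1, 2 and 3, against 2.12, 2.69 and 3.99 RPKM in controls 1, 2 and 3. Control 3 lay above Axin1 library 3, and controls 1 and 2 lay below every Axin1 library. The log2 fold change of Lrp5 was 0.58 (SE 0.24, 95% confidence interval 0.03 to 1.13), with an unadjusted p of 0.0413 and an edgeR adjusted p of 0.268. Without control 3 it was 0.84 (edgeR adjusted p 0.0573), and without control 1 it was 0.40 (edgeR adjusted p 0.559).

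Control 3 stood apart from the other controls in other genes too. Cdh5, the endothelial cadherin gene, had 243, 240 and 229 RPKM in the Axin1 libraries, against 105, 125 and 212 RPKM in controls 1, 2 and 3. Its log2 value was 0.68 (edgeR adjusted p 0.218), and without control 3 its edgeR adjusted p was 0.00222. The summed neural markers were 368, 375 and 402 CPM in the Axin1 libraries, against 312, 374 and 517 CPM in controls 1, 2 and 3. Nes was the largest part of this sum in every library, at 155 to 235 CPM. The markers did not all move together. In controls 1, 2 and 3, Stmn2 stood at 111, 124 and 84.7 CPM, and Tubb3 at 14.4, 34.6 and 106 CPM. Of 13 neural markers found, 10 were tested and 0 called by edgeR or DESeq2 (0 at an unadjusted p under 0.05), and none was at 0 in all libraries. DESeq2 gave Sox2 and Elavl3 no adjusted p. The part of these differences in the Lrp5 values was not tested.

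Lrp6 had 9.79, 8.78 and 8.56 RPKM in the Axin1 libraries, against 7.70, 9.43 and 7.02 RPKM in the controls, with control 2 among the Axin1 libraries. Its log2 fold change of 0.15 (95% confidence interval -0.17 to 0.47, edgeR adjusted p 0.634) leaves room for changes between 0.89-fold and 1.39-fold. Lrp6 exceeded Lrp5 in all 6 libraries. The ratio of Lrp6 to Lrp5 RPKM was 2.00, 1.93 and 2.25 in the Axin1 libraries, against 3.63, 3.51 and 1.76 in controls 1, 2 and 3. Lrp5 and Lrp6 together gave 14.7, 13.3 and 12.3 RPKM in the Axin1 libraries, against 9.82, 12.1 and 11.0 RPKM in the controls. This sum did not overlap between groups, while each gene alone did. Axin1 library 3 and control 2 lay close together in the sum.

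The Wnt7 co-activators Gpr124 and Reck did not pass the test. Gpr124, the adhesion receptor needed for brain vessel growth into the forebrain, had 5.09, 6.64 and 5.24 RPKM in Axin1 libraries 1, 2 and 3, against 6.87, 7.35 and 6.30 RPKM in controls 1, 2 and 3. Axin1 library 2 lay above control 3, and the other 2 Axin1 libraries lay below every control (log2 -0.29, 95% confidence interval -0.64 to 0.06, edgeR adjusted p 0.375). In the GRCm38 annotation Gpr124 (there Adgra2) shares exon positions with Brf2 on the opposite strand. Reck, which binds the Wnt7 linker and presents the ligand to Frizzled with GPR124, had 2.81, 2.12 and 2.81 RPKM in the Axin1 libraries, against 3.15, 3.84 and 2.20 RPKM in the controls. These groups overlapped (log2 -0.27, 95% confidence interval -0.85 to 0.32, edgeR adjusted p 0.650). Gpr124 exceeded Reck in every library, and the ratio of their RPKM was 1.81 to 3.13 in the Axin1 libraries and 1.92 to 2.87 in the controls.

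Tspan12 was the most even of the 10. It had 89.8, 87.4 and 82.4 RPKM in Axin1 libraries 1, 2 and 3, against 85.7, 89.1 and 72.8 RPKM in controls 1, 2 and 3. The log2 value was 0.05 (95% confidence interval -0.21 to 0.31, edgeR adjusted p 0.865), so the interval ran from 0.864-fold to 1.24-fold, the narrowest among the 10 genes. An exon of the antisense gene Gm30270 overlaps Tspan12 in the GRCm38 annotation. The ratio of Tspan12 to Fzd4 RPKM was 10.2, 12.3 and 15.04 in the Axin1 libraries, against 16.2, 17.9 and 18.3 in the controls, without overlap. Fzd4 alone did not overlap either, so this ratio is not a separate result.

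**Figure D4:**
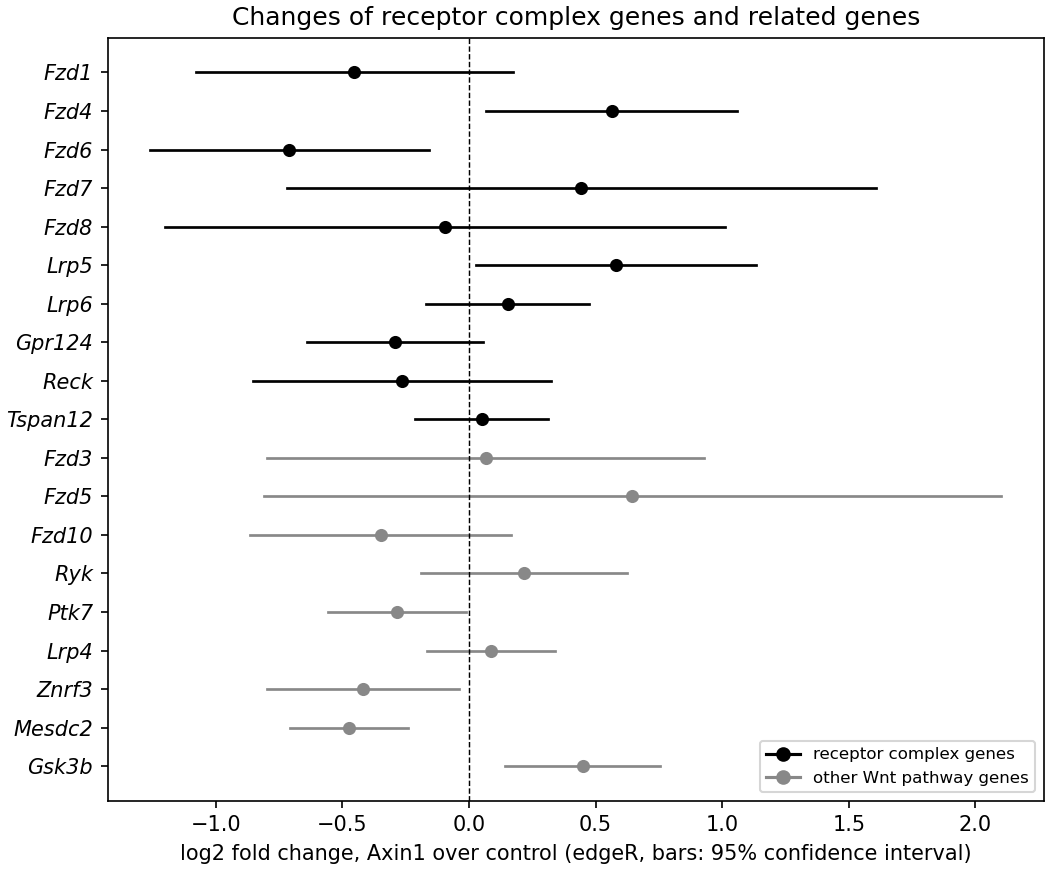
Log2 fold change, Axin1 over control, with 95% confidence intervals from edgeR for the 10 genes (black), for the 6 other tested Wnt receptors and for Znrf3, Mesdc2 and Gsk3b (grey). Of the 10 genes, the intervals of Fzd4 (0.07 to 1.06), Fzd6 (-1.26 to -0.16) and Lrp5 (0.03 to 1.13) lie off 0.

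The tested genes whose pattern over the 6 libraries lay nearest to the 3 members with the smallest p were found by the root mean square distance between centred log2 CPM profiles, among 8869 candidates with a mean of at least 10 CPM. For Fzd6 these were Dgki, Dtx3l and Efr3b, at distances of 0.091, 0.097 and 0.10. Klhl4, Timp3 and 1810029B16Rik were nearest to Fzd4, at 0.096, 0.11 and 0.11. Akap1, Rab28 and Tmem188 were nearest to Lrp5, at 0.066, 0.072 and 0.084. None of these 9 genes had an edgeR adjusted p under 0.05, the lowest being 0.0852 for Klhl4. By DESeq2, Klhl4 (adjusted p 0.00702) and Dgki (adjusted p 0.0384) were called.

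Of 10 other Wnt receptors, 6 were tested and 0 were called by edgeR or DESeq2, and the median log2 fold change was 0.08. DESeq2 gave Fzd5 no adjusted p. Ptk7, a co-receptor of planar cell polarity signalling, was the 1 gene at an unadjusted p under 0.05, against 17.2% of all tested genes. It stood at 10.1, 9.96 and 9.10 RPKM in the Axin1 libraries, against 11.9, 11.6 and 11.6 RPKM in the controls (log2 -0.29, edgeR adjusted p 0.270). Fzd10 had 6.60, 7.16 and 3.97 RPKM in the Axin1 libraries, against 7.17, 7.44 and 7.72 RPKM in the controls (log2 -0.35, edgeR adjusted p 0.479). The Axin1 libraries lay below the controls in both genes, and Axin1 library 3 was the lowest. Lrp4, an LDL receptor relative that binds agrin and Wnt inhibitors, was the highest of the list, at 18.6 to 20.6 RPKM in the Axin1 libraries and 16.5 to 19.6 RPKM in the controls. Ryk, a receptor with an inactive kinase domain, had a log2 value of 0.22 (edgeR adjusted p 0.584), and Fzd5, at 5 to 19 reads a library, had 0.65 (edgeR adjusted p 0.656). Fzd3 was highest in control 3, at 1.13, 1.43 and 1.65 RPKM in the Axin1 libraries and 0.750, 1.08 and 2.18 RPKM in the controls.

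Ligand transcripts were scarce in the sorted cells. Of 24 ligand genes (the Wnt genes, Ndp and the R-spondins) 3 were tested and 0 called by edgeR (0 at an unadjusted p under 0.05). DESeq2 gave no adjusted p to any of the 3, Ndp, Rspo3 and Wnt5a. Wnt7a had 4, 2 and 0 reads in Axin1 libraries 1, 2 and 3, against 1, 1 and 8 reads in controls 1, 2 and 3. Wnt7b had 7, 13 and 7 reads in the Axin1 libraries, against 3, 7 and 28 reads in the controls. Both were highest in control 3, the library with the highest neural marker sum. Ndp had 14, 16 and 8 reads in the Axin1 libraries, against 0, 13 and 1 reads in the controls (log2 1.34, 95% confidence interval -0.94 to 3.62, edgeR adjusted p 0.542). Rspo3, an enhancer of Wnt signalling, had 8, 43 and 29 reads in the Axin1 libraries, against 6, 3 and 28 reads in the controls. Wnt5a, best known for signalling without beta-catenin, had 4, 29 and 30 reads in the Axin1 libraries, against 5, 24 and 28 reads in the controls. In all 3 tested ligands the groups overlapped. Wnt2, Wnt6, Wnt8a and Rspo4 had 0 reads in all 6 libraries, which allows up to 0.207 to 0.259 CPM in an Axin1 library and 0.230 to 0.276 CPM in a control (3 reads, counting error only).

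Among regulators of the receptors, edgeR called 0 of 2 tested turnover genes and 0 of 15 receptor-proximal transducers, against 0.845% of all tested genes. At an unadjusted p under 0.05 there were 1 and 5, against 17.2% of all tested genes. DESeq2 called 1 of the transducers, against 6.58% of the genes it gave an adjusted p. Mesdc2, the chaperone that folds LRP5 and LRP6 in the endoplasmic reticulum, came closest. It stood at 29.1, 32.3 and 27.2 RPKM in Axin1 libraries 1, 2 and 3, against 40.1, 40.6 and 40.9 RPKM in controls 1, 2 and 3 (log2 -0.47, 95% confidence interval -0.71 to -0.24, edgeR adjusted p 0.0770, DESeq2 adjusted p 0.00811). The 3 controls lay within 1 RPKM of each other and above every Axin1 library, and DESeq2 called the gene. Gsk3b, a kinase that phosphorylates beta-catenin and the LRP6 tail, had 54.3, 52.9 and 51.2 RPKM in the Axin1 libraries, against 38.9, 44.2 and 31.6 RPKM in the controls (log2 0.45, edgeR adjusted p 0.152).

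Csnk1g1, a membrane-bound casein kinase that phosphorylates LRP6, stood at 18.2, 18.8 and 20.9 RPKM in the Axin1 libraries, against 10.8, 10.5 and 18.2 RPKM in the controls (log2 0.54, edgeR adjusted p 0.237). Control 3 again lay next to the Axin1 libraries, and without it the log2 fold change was 0.82 (edgeR adjusted p 0.00954). The related Csnk1g2 stood at 9.80, 8.45 and 7.08 RPKM in the Axin1 libraries, against 11.4, 12.0 and 10.9 RPKM in the controls (log2 -0.40, edgeR adjusted p 0.275). Znrf3, the ubiquitin ligase that removes Frizzled and LRP6 from the cell surface and is itself a Wnt target, had 3.86, 4.06 and 5.24 RPKM in the Axin1 libraries, against 5.42, 6.38 and 5.61 RPKM in the controls (log2 -0.42, edgeR adjusted p 0.247). Lgr4, a receptor for R-spondins, had 1.75, 2.55 and 1.52 RPKM in the Axin1 libraries, against 1.85, 1.23 and 1.29 RPKM in the controls (log2 0.39, edgeR adjusted p 0.537). For Ctnnb1, the beta-catenin gene, the log2 value was -0.05 (edgeR adjusted p 0.906).

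Wnt target and barrier genes gave the readout downstream of the receptors. Of 17 tested genes on this list 7 fell and 0 rose by edgeR over all genes, where 0.845% were called in either direction. The median log2 fold change was -1.32 on the list against 0.02 over all tested genes. The 7 were Apcdd1, Nkd1, Tnfrsf19, Foxq1, Foxf2, Slc2a1 and Abcb1a, and the list was chosen with these results known. DESeq2 called 10 lower and 1 higher, against 6.58% in either direction of the genes it gave an adjusted p. The 1 higher was Myc (DESeq2 adjusted p 0.0429). Apcdd1, a membrane-bound Wnt inhibitor, stood at 4.10, 5.99 and 6.82 RPKM in the Axin1 libraries, against 29.9, 47.0 and 41.7 RPKM in the controls (log2 -2.82, edgeR adjusted p 0.00461). Slc2a1, which encodes the GLUT1 glucose carrier of barrier endothelium, stood at 572, 519 and 636 RPKM in the Axin1 libraries, against 1345, 1497 and 1378 RPKM in the controls (log2 -1.30, edgeR adjusted p 0.00461). In both genes every control lay above every Axin1 library. The other 5 log2 fold changes lay between -2.09, for Nkd1, and -1.32, for Abcb1a. Without control 2 or without Axin1 library 2, edgeR called 0 genes of the list and 0 of all tested genes (1539 and 1733 at an unadjusted p under 0.05). The log2 fold changes stayed of like size there, at -2.68 and -2.86 for Apcdd1 and -1.26 and -1.22 for Slc2a1. Without Axin1 library 1, Axin1 library 3 or control 1, 3 genes were called each time (Apcdd1, Tnfrsf19 and Slc2a1). Without control 3, 10 genes of the pathway lists were called, with Csnk1g1, Tcf7 and Cldn5 added to the 7. Cldn5, the tight junction claudin of brain endothelium, stood the other way from the 7, at 130, 196 and 169 RPKM in the Axin1 libraries, against 30.0, 33.7 and 138 RPKM in controls 1, 2 and 3 (log2 1.29, edgeR adjusted p 0.395). Control 3 lay among the Axin1 libraries for Cldn5 and the other 2 controls far below them. The transcription factor gene Tcf7 had a log2 value of -1.57 (edgeR adjusted p 0.0523), Lef1 of -0.52 (edgeR adjusted p 0.167) and Myc of 0.74 (edgeR adjusted p 0.191). Axin2, the feedback scaffold of the same pathway, had 0.834, 0.998 and 0.882 RPKM in the Axin1 libraries, against 1.35, 1.45 and 1.78 RPKM in the controls (log2 -0.77, edgeR adjusted p 0.198). Exons of Axin2, Lef1, Slc2a1, Abcb1a, Foxq1, Foxf2, Fzd5, Rspo3, Wnt5a, Wnt7b and Ctnnb1 overlap exons of the other strand in the GRCm38 annotation, so their counts carry the same uncertainty as those of Fzd6.

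Markers of blood cells varied between libraries of both groups. Summed macrophage markers were 244, 1269 and 2703 CPM in Axin1 libraries 1, 2 and 3, against 459, 858 and 437 CPM in controls 1, 2 and 3, and 0 of 12 were called by edgeR or DESeq2 (0 at an unadjusted p under 0.05). Summed megakaryocyte and platelet markers were 693, 1810 and 2365 CPM in the Axin1 libraries, against 1516, 1450 and 1548 CPM in the controls, with 0 of 8 called by edgeR, while Clec1b was at an unadjusted p under 0.05 and called lower by DESeq2. Erythroid markers summed to 242, 1246 and 2635 CPM in the Axin1 libraries, against 689, 1841 and 3018 CPM in the controls, with 0 of 6 tested called by edgeR or DESeq2 (0 at an unadjusted p under 0.05). Hba-a1 had 2 entries, and only 1 was read here, at 0 in every library. Axin1 library 1, which had the lowest of each of these sums, had the lowest Fzd6 and the highest Fzd4 and Lrp5 of the 6 libraries. The part of blood cells in these values was not tested, and without Axin1 library 1 the log2 fold changes of Fzd6, Fzd4 and Lrp5 were -0.54, 0.38 and 0.49.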

How the data were processed

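RNA sequencing libraries were made from polyadenylated RNA with a SMARTer low-input kit, per the labels' protocols, for 3 Axin1 and 3 control samples. Bowtie and mm9 are named in the submitters' processing notes. Not given in the sources used here are versions, the counting program and its strand setting. Per the file headers, each deposited table gives a count of reads and an RPKM per RefSeq gene entry. The deposited counts were whole numbers and entered the tests unchanged. Levels were compared between genes by the authors' deposited RPKM.

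After filterByExpr (minimum count 10, minimum total 15), 12661 genes were fitted with edgeR 4.0.16 under R 4.3.3 (quasi-likelihood, robust, TMM, no covariates). P-values were adjusted by Benjamini-Hochberg over those genes, with a threshold of 0.05. A standard error is the absolute log2 fold change over the square root of F, and CPM are TMM-normalised. Alternatives were DESeq2 1.42.0, limma 3.58.1 on log2 RPKM with pseudocounts of 1 and 0.1, other normalisations and filters, a replicate block and leaving out each library. The fit was tested on simulated counts with 200 changed genes. It called 2 of 50 tested genes changed 1.5-fold and 22 of 49 changed 2-fold. Of those changed 4-fold it called 41 of 48, and of those changed 8-fold 46 of 50. Every pair of libraries differed by more than counting noise, with a chi-square statistic of 15.9 to 60.1 per degree of freedom.

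The members and gene lists were chosen with earlier results of these data known. Named genes were the members, Axin1, Axin2, Pecam1, Cdh5, the called genes of the 5 pathway lists with up to 4 more of each by p, and the nearest patterns. Fzd3, Lrp4, Wnt7a, Wnt7b, Ctnnb1, Cldn5 and Clec1b were added after their values were seen. 1 list gene was not analysed here. Promoter sequences and gene overlaps are of GRCm38, and no mm9 coordinates are given.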

Additional observations from a re-analysis of the deposited data

How the results depend on the processing

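Over 18 alternatives, 8 of the 10 receptor complex genes kept the direction of their log2 fold change, and Fzd8 and Tspan12 did not. The number of the 10 called stayed at 0 in all but 1 alternative. That exception was the replicate block on the number in the titles, in the 4 libraries that share one. It called 2, Fzd6 (log2 -0.91, edgeR adjusted p 9.56e-04) and Lrp5 (log2 0.94, edgeR adjusted p 0.00789), and 11.9% of all tested genes. After the block and group terms, 4 libraries leave few degrees of freedom per gene, so these p-values lean on the spread shared over genes. The same 4 libraries without a block called 0 of the 10, and a block on the description number over 6 libraries called 0. The labels do not say what either number marks. Deviations from the group means correlated at 0.23 and 0.15 in the pairs that share a title number, and at -0.02 in the pair that shares the description number alone. In pairs that share neither number they ran from -0.25 to 0.17, the highest being Axin1 library 3 with control 2. With 2 pairs the title number could not be settled as a pairing, and the libraries were not treated as paired. Fzd8 had 0.0067 with the title block and 0.0025 in the 4 libraries without it, and -0.20 to 0.075 with 1 library left out. Tspan12 had -0.017 with that block, -0.016 in the 4 libraries without it and -0.054 to 0.10 with 1 library left out. Pecam1 ranged from -0.15 to 0.0030 with 1 library left out. Wnt5a (log2 0.02 with all libraries) had -0.025 with upper quartile factors, -0.042 with the block on the description number, -0.064 with that on the title number, -0.018 with limma on log2(RPKM + 0.1) and -0.46 to 0.50 with 1 library left out. For Fzd8, Tspan12 and Pecam1 the sign changes were of values near 0, while Wnt5a reached -0.46 with 1 library left out. The cause was not tested. Of the 5 pathway lists, 7 genes were called with all libraries, 12 by DESeq2, and 0 to 10 with 1 library left out. Over all genes edgeR called 107 and DESeq2 720, the non-robust fit called 51, no filter 197, limma 14 at either pseudocount, the title block 1500 and the 4 libraries without it 512. With 1 library left out, 0 to 695 were called. Levels from reads and deposited gene lengths were not run, since no length is given. Fzd7 and Fzd8, with under 40 reads a library, had the widest intervals of the 10.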
